A study of Mus musculus with 6 samples.

Results

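The 10 genes described here, *Gfap*, *Aqp4*, *Slc1a2*, *Slc1a3*, *Aldh1l1*, *Gja1*, *Gjb6*, *S100b*, *Aldoc* and *Fgfr3*, are genes by which astrocytes are usually recognised. They were taken by symbol from the 18254 genes of the deposited table through their Ensembl identifiers in GENCODE release M21, and all 10 were found and passed the filter on low values, a mean of at least 5. RNA was sequenced from the medial prefrontal cortex (mPFC) of wild-type (WT) mice and of *Shank3* transgenic (TG) mice, which carry an EGFP-tagged *Shank3* transgene and overexpress this scaffold protein of the excitatory postsynaptic density. The mice were males of 10 to 12 weeks on a C57BL/6J background, the WT mice were littermates of the TG mice, and the promoter of the transgene is not given in the sources used here. Of the 6 libraries, 3 were TG and 3 WT, and a replicate is a pool of tissue from 2 mice. Values are normalized counts, which the paper describes as read counts divided by size factors. The reads were estimated from transcripts, and the values are not whole reads.

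Astrocytes take up the glutamate and potassium that neurons release, supply neurons with metabolic fuel and, through end feet on blood vessels and at the pial surface, take part in the exchange of water. They are joined into networks by gap junctions, and most cortical astrocytes of the grey matter hold little of the intermediate filament protein that *Gfap* encodes. *Gfap* is strongest in white matter astrocytes, in the glia limitans under the pia and in reactive astrocytes, and it was therefore read apart from the other 9 genes. In these tissue libraries, fewer astrocytes and less RNA per astrocyte cannot be told apart.

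The libraries summed to between 28363967 and 29447717 normalized counts. *Shank3* had between 16310 and 19003 normalized counts in the TG libraries and between 6791 and 8374 in the WT libraries, in the direction of the labels. The libraries TG-3 and WT-3 deviated alike from their genotype means, with a correlation across genes of 0.62, against 0.30 and 0.33 for the other same-numbered pairs and 0.27 and 0.23 for numbers 1 and 2 crossed. TG-2 held more of an olfactory bulb and neuroblast list than the others, with 3115 summed normalized counts over its 6 genes against 1555 to 2065. None of those 6 genes was at 0 in any library.

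No difference between *Shank3* TG and WT mPFC was detected for any of the 10 astrocyte genes. The log2 fold changes, written as log2 differences of TG minus WT, lay between -0.07 for *S100b* and 0.03 for *Aqp4*, with a median of -0.02, and for every gene the TG and WT libraries overlapped. By limma with genotype alone, none of the 10 passed an adjusted p-value of 0.05, and none an unadjusted one. Over all 16714 tested genes these numbers were 0 (0%) and 336 (2.01%), and the median log2 difference was -0.0037. The groups did not overlap for 6.02% of all tested genes, 2.91% with TG the higher. With a block for the replicate number, 0 of the 10 genes passed either threshold, against 0.00598% and 4.98% of all tested genes. With an empirical null, which rescales the test statistics by their own width, 0 of the 10 passed either threshold, against 0.156% and 7.27%. What the libraries could show differed between the genes, and the 95% intervals reached from a 0.711-fold to a 1.39-fold level in TG for the least precise of them, *Gjb6*.

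**Figure D1:**
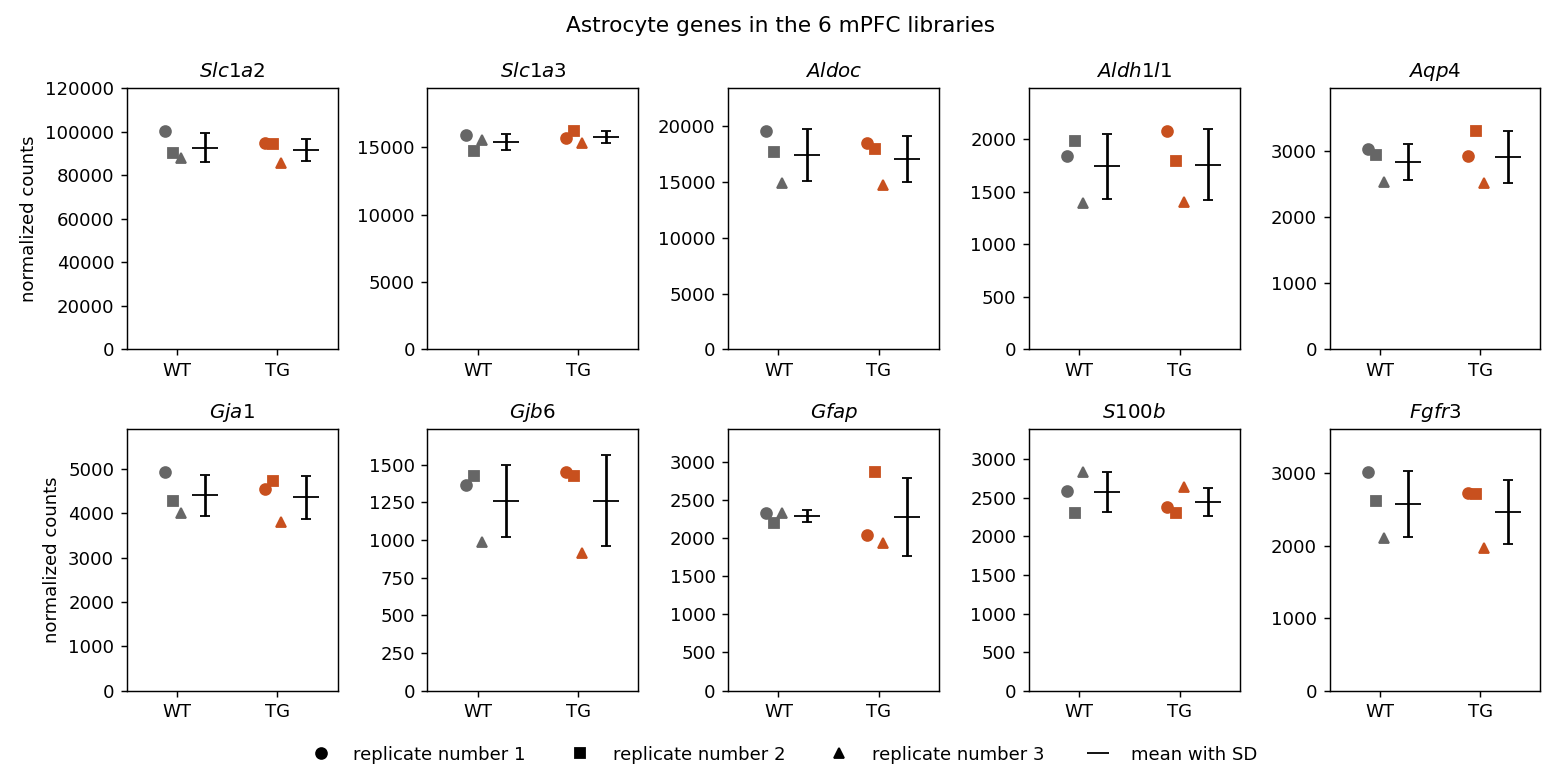
Normalized counts of the 10 astrocyte genes in each of the 6 libraries, 1 panel per gene with an axis from 0, WT in grey and *Shank3* TG in orange. The shape of a point gives the replicate number, and the bar beside the points is the mean with its SD over 3 libraries. The WT and TG points overlap in each panel, and the triangles of replicate number 3 are the 2 lowest points in 7 of the 10 panels.

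Levels of different genes were compared as normalized counts per kilobase of exon, with the exons of all annotated transcripts of a gene merged. On this scale *Slc1a2* was highest, with a mean of 7020 per kilobase over the 6 libraries, and *Aldoc* followed with 5271. *Slc1a3* and *S100b* came next with 1822 and 1690, and their ranges over the libraries overlapped. *Gfap* had 540, *Gjb6* 471, *Aqp4* 460, *Gja1* 427, *Aldh1l1* 387 and *Fgfr3* 352 per kilobase. Neighbours among these last 6 genes had overlapping ranges. Within single libraries *Aqp4* was above *Gja1* in 6 of 6, while each other neighbour pair of these 6 genes kept its order in 4 or 5 of the 6. The ranges did not overlap between *Slc1a2* and *Aldoc*, between *Aldoc* and *Slc1a3*, or between *S100b* and *Gfap*. The mean of the first gene was 19.9 times that of the last. The merged exon length counts rarely used exons as well, and it ran from 1484 bases for *S100b* to 13133 for *Slc1a2*.

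**Figure D2:**
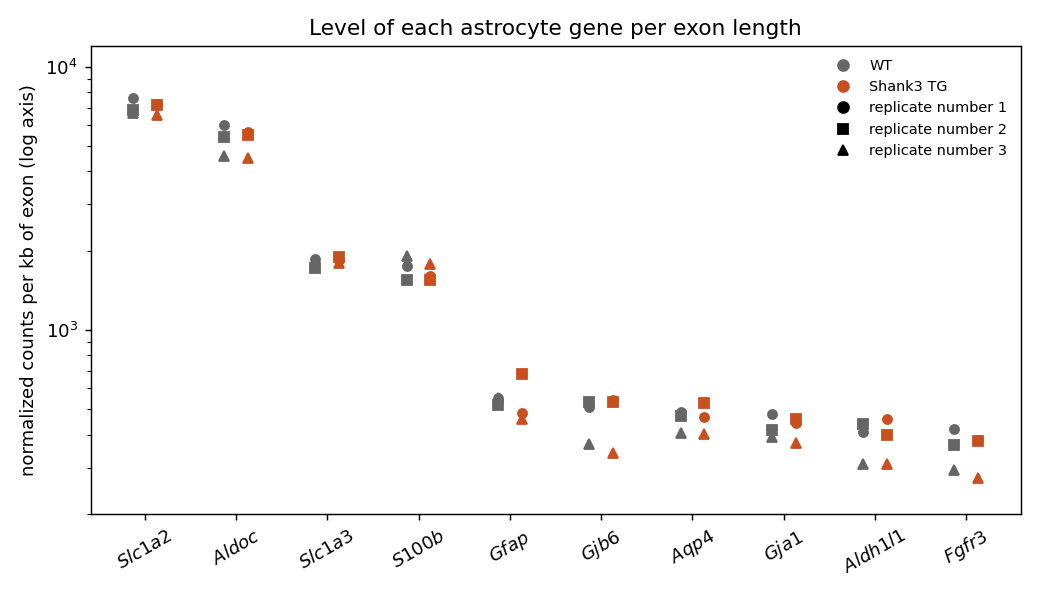
Normalized counts per kilobase of merged exon for each astrocyte gene, on a log axis, with 1 point per library, WT in grey and *Shank3* TG in orange. *Slc1a2* and *Aldoc* lie above the rest with means of 7020 and 5271, and the 6 genes on the right have means between 352 and 540 and overlap with their neighbours.

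The 2 glutamate transporters had small log2 differences and low spread. *Slc1a2* (ENSMUSG00000005089) encodes GLT-1, the main glutamate transporter of the forebrain, and lies on chromosome 2 from 102658659 to 102790784 on the plus strand of GRCm38. It had 94680, 94342 and 85907 normalized counts in TG-1, TG-2 and TG-3 and 100307, 90161 and 87787 in WT-1, WT-2 and WT-3. TG-1 and TG-2 lay inside the WT range and TG-3 just under it, and the library numbered 3 was the lowest of its genotype in both. The log2 difference was -0.02 (standard error, SE, 0.09, 95% interval -0.23 to 0.20). *Slc1a3* (ENSMUSG00000005360) encodes GLAST, a glutamate transporter that astrocytes share with radial glia, and lies on chromosome 15 from 8634124 to 8710764 on the minus strand. In the order of their numbers, the libraries had 15696, 16189 and 15298 normalized counts in TG and 15916, 14724 and 15523 in WT. It was the least variable of the 10 genes, with its highest library only 1.10 times its lowest, and TG-3 and WT-3 were not set apart. Its log2 difference was 0.03 (SE 0.07, 95% interval -0.13 to 0.19), the narrowest interval of the 10 genes. The log2 ratio of *Slc1a2* to *Slc1a3* was 2.54 ± 0.05 in TG and 2.59 ± 0.08 in WT (SD over 3 libraries). The 2 means differed by less than the SD of the WT libraries (exact two-sided permutation test, p = 0.4, where 3 libraries against 3 cannot give less than 0.1). That test does not use the replicate number. By number, the ratio was 2.593, 2.543 and 2.489 in TG and 2.656, 2.614 and 2.500 in WT, so it was lower in TG at each number.

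The enzymes *Aldoc* and *Aldh1l1* had estimates near 0 and wider intervals. *Aldoc* (ENSMUSG00000017390) encodes aldolase C, the brain form of a glycolytic enzyme, and lies on chromosome 11 from 78322968 to 78327781 on the plus strand. It had 18468, 17952 and 14679 normalized counts in TG and 19519, 17696 and 14890 in WT, so that the libraries numbered 3 were clearly the lowest in each genotype. The fit gave it a TG minus WT log2 difference of -0.03 (SE 0.13, 95% interval -0.32 to 0.27). *Aldh1l1* (ENSMUSG00000030088) encodes a folate-metabolising enzyme that marks nearly all astrocytes, and lies on chromosome 6 from 90486427 to 90600203 on the plus strand. Its normalized counts were 2077, 1794 and 1403 in TG and 1841, 1987 and 1396 in WT. Here too the libraries numbered 3 stood below the other 4, and they differed from each other by only 0.01 on the log2 scale. The log2 difference was 0.01 (SE 0.18, 95% interval -0.39 to 0.42).

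The end foot and gap junction genes had estimates near 0 as well, with the widest spread for *Gjb6*. *Aqp4* (ENSMUSG00000024411) encodes the water channel of the astrocyte end feet and lies on chromosome 18 from 15389496 to 15410982 on the minus strand. It had 2912, 3293 and 2505 normalized counts in TG and 3027, 2939 and 2524 in WT, with TG-2 the highest library and both libraries numbered 3 the lowest. Its log2 difference was 0.03 (SE 0.12, 95% interval -0.24 to 0.31). *Gja1* (ENSMUSG00000050953), on chromosome 10 from 56377330 to 56402513 on the plus strand, encodes the more widely used of the astrocyte connexins, which is also made in the leptomeninges. It had 4551, 4719 and 3810 normalized counts in TG and 4922, 4280 and 4008 in WT, a log2 difference of -0.01 (SE 0.11, 95% interval -0.27 to 0.24). *Gjb6* (ENSMUSG00000040055), on chromosome 14 from 57123303 to 57133611 on the minus strand, encodes the other astrocyte connexin. Its normalized counts were 1448, 1422 and 914 in TG and 1366, 1423 and 983 in WT, and in both genotypes the library numbered 3 was far below the other libraries. *Gjb6* was the most variable of the 10 genes, with its highest library 1.58 times its lowest. The fit gave it a log2 difference of -0.01 (SE 0.21, 95% interval -0.49 to 0.48), and a block for the replicate number narrowed the interval to -0.16 to 0.14. The log2 ratio of *Gja1* to *Gjb6* was 1.81 ± 0.22 in TG and 1.82 ± 0.22 in WT (SD over 3 libraries).

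*Gfap* was highest in TG-2, as *Aqp4* and *Slc1a3* were, but it was not low in WT-3. Its gene (ENSMUSG00000020932) encodes glial fibrillary acidic protein and lies on chromosome 11 from 102887336 to 102900912 on the minus strand. It had 2033, 2857 and 1928 normalized counts in TG-1, TG-2 and TG-3 and 2330, 2192 and 2324 in WT-1, WT-2 and WT-3. The WT libraries lay close together, TG-1 and TG-3 were below all of them and TG-2 was above all of them. The coefficient of variation was therefore 22.4% in TG and 3.41% in WT, while the means were 2273 ± 509 and 2282 ± 77.9 normalized counts (SD, n = 3 each). The log2 difference was -0.03 (SE 0.14, 95% interval -0.36 to 0.31). It was 0.04 without TG-1, -0.20 without TG-2 and 0.08 without TG-3, so that leaving out any TG library moved it by more than its own size. Without TG-2, limma gave *Gfap* an unadjusted p-value of 0.051 and an adjusted one of 0.9998. TG-2 is also the library with the most olfactory bulb signal, in which *Cdhr1*, a cadherin of olfactory bulb mitral and tufted cells, had 720 normalized counts against 39.2 to 100 elsewhere. The part of that signal in the *Gfap* value of TG-2 was not tested. WT-3, at 2324, was not low for *Gfap* as it was for *Gjb6*, *Aldh1l1* and *Fgfr3*.

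Among tested genes whose mean reached 500 normalized counts, the 5 whose profile over the 6 libraries lay nearest to that of *Gfap* were *Apod*, *Gdpd5*, *Col5a1*, *Hdx* and *Pxdn*. The measure was the root mean square difference of the centred log2 values, which ran from 0.05 for *Apod* to 0.08 for *Pxdn*. *Apod*, which encodes a lipid-binding apolipoprotein made by glia and leptomeningeal cells, had 2187, 2836 and 2058 normalized counts in TG and 2283, 2314 and 2467 in WT, again with TG-2 the highest and TG-3 the lowest. No other astrocyte gene of the 10 was as near, and *Aqp4* was the nearest of them at a distance of 0.13. *Gja1* and *Aldoc* were each other's nearest gene among the 10, at 0.05, and so were *Gjb6* and *Aldh1l1*, at 0.09. These distances rest on 6 libraries and are a description.

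*S100b* and *Fgfr3* had the largest estimates of the 10, and both were small beside their spread. *S100b* (ENSMUSG00000033208), on chromosome 10 from 76253853 to 76261159 on the plus strand, encodes a calcium-binding protein that mature oligodendrocytes make as well as astrocytes. It had 2386, 2297 and 2643 normalized counts in TG and 2590, 2306 and 2829 in WT, and it was the only one of the 10 genes with its highest library numbered 3 in both genotypes. Its log2 difference was -0.07 (SE 0.10, 95% interval -0.30 to 0.15), or -0.0036 without WT-3, and each TG library was below the WT library of the same number, with log2 differences of -0.12, -0.01 and -0.10. No other of the 10 genes had the same sign in all 3 of these pairs. Under a block for the replicate number the unadjusted p-value of *S100b* was 0.219 in limma's test, the smallest of the 10, and the adjusted one was 0.996. *S100b* overlaps *Dip2a* on the opposite strand. The library kit was stranded, but the strand setting of the counting is not given in the sources used here. *Fgfr3* (ENSMUSG00000054252), on chromosome 5 from 33721674 to 33737068 on the plus strand, encodes a fibroblast growth factor receptor of astrocytes and their precursors. It had 2726, 2716 and 1959 normalized counts in TG and 3007, 2611 and 2105 in WT, with the libraries numbered 3 the lowest in each genotype. The fit gave it a log2 difference of -0.06 (SE 0.17, 95% interval -0.45 to 0.33).

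**Figure D3:**
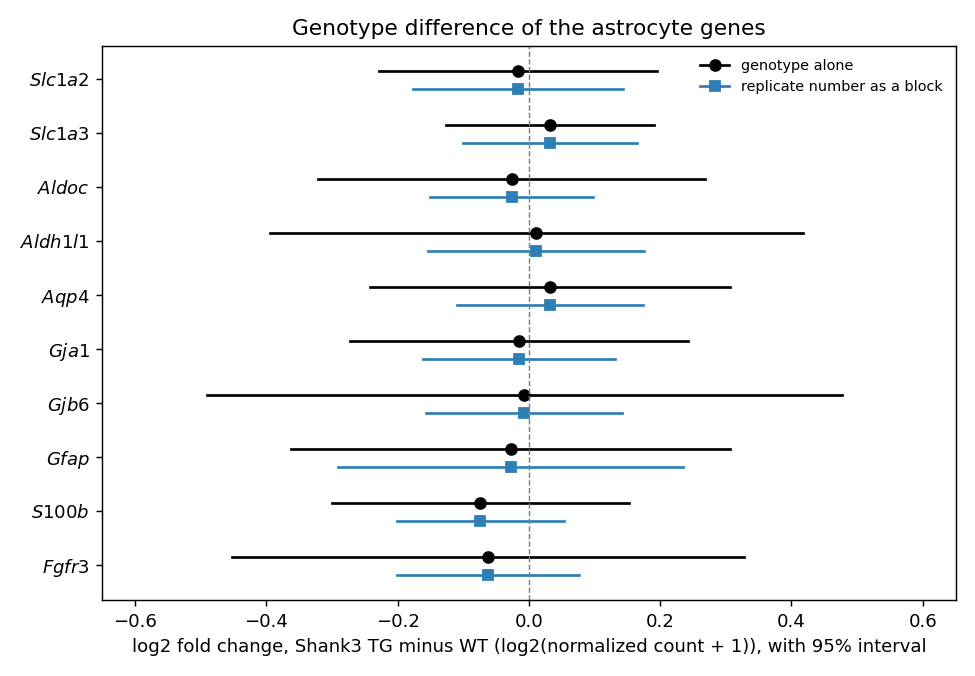
Log2 fold change of each astrocyte gene, *Shank3* TG minus WT on the scale log2(normalized count + 1), as a point with its 95% interval, from the model with genotype alone (black circles) and from the model with a block for the replicate number (blue squares). All 20 intervals include 0, the estimates lie between -0.07 and 0.03, and the block narrows the interval of *Gjb6* the most, from -0.49 to 0.48 down to -0.16 to 0.14.

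Each library numbered 3 was compared with the mean of the other 2 of its genotype. For 9 of the 10 genes this difference exceeded the fitted genotype difference in both genotypes. The share of all tested genes that do so was not computed. A difference of 1 library from 2 also varies more than one of 3 libraries from 3. In both genotypes the library numbered 3 was below the mean of the libraries numbered 1 and 2 for 7 genes, *Aqp4*, *Slc1a2*, *Aldh1l1*, *Gja1*, *Gjb6*, *Aldoc* and *Fgfr3*, and for these TG-3 and WT-3 were the 2 lowest of the 6 libraries. Of all tested genes, 36.4% were lower in both libraries numbered 3 and 35.8% were higher in both. Among the 8278 tested genes with means of 500 or more, as all 10 had, 45.2% were lower in both. The differences for *Gjb6* were -0.65 in TG and -0.50 in WT on the log2 scale, for *Aldh1l1* -0.46 and -0.45, for *Fgfr3* -0.47 and -0.41, and for *Aldoc* -0.31 and -0.32. They were -0.31 and -0.24 for *Aqp4*, -0.28 and -0.20 for *Gja1* and -0.14 and -0.12 for *Slc1a2*. The 3 other genes did not follow. *Slc1a3* had -0.06 and 0.02, *Gfap* had -0.32 and 0.04, and *S100b* had 0.18 and 0.21.

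Of the lists of other cell types, some shifted with the replicate number and some did so little. A microglia list had a median of -0.25 in TG-3 and -0.20 in WT-3 by the same measure, with 6 of 7 genes lower in both, and a list of excitatory neuron genes had 0.21 and 0.19, with 5 of 6 genes higher in both. The medians were -0.04 and -0.0043 for oligodendrocyte precursors, -0.02 and -0.05 for inhibitory neurons and 0.0019 and -0.06 for striatal neurons, and mature oligodendrocytes had both signs, at -0.05 and 0.24. Choroid plexus genes had 0.70 and 0.69, with 4 of 5 higher in both, ependymal genes 0.18 and 1.10, olfactory bulb and neuroblast genes -0.77 and 0.63, leptomeningeal genes -0.08 and -0.08 and endothelial genes -0.15 and -0.07. The part of cell composition, RNA quality or sequencing in these shifts was not tested. Each genotype had 1 library of each number, and leaving out both libraries numbered 3, a choice made after the values had been seen, left 0 of the 10 genes past the adjusted threshold. The log2 differences between libraries of the same number ran from -0.27 for *Gfap* at number 3 to 0.38 for *Gfap* at number 2. Among the 3 numbers, 9 of the 10 genes had both signs, and the share of all tested genes with both signs was not computed.

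**Figure D4:**
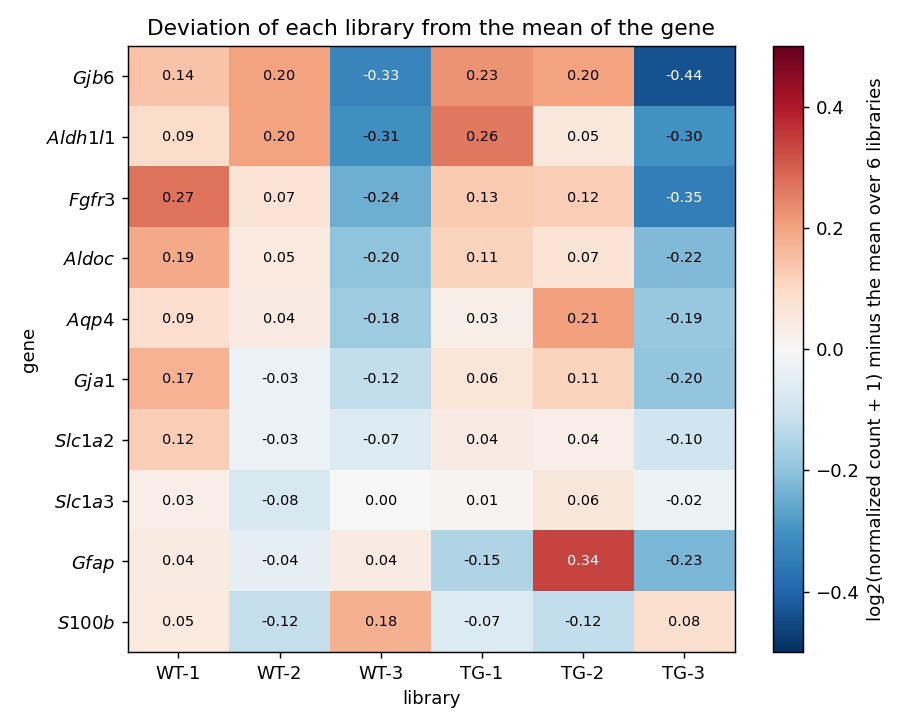
Deviation of each library from the mean of the gene over the 6 libraries, on the scale log2(normalized count + 1), for the 10 astrocyte genes (rows) and the 6 libraries (columns), with the value printed in each cell. WT-3 and TG-3 are blue for the upper 7 genes, *Gfap* is highest in TG-2 at 0.34, and *S100b* is above its mean in both libraries numbered 3, at 0.18 and 0.08.

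Beyond these 10 genes, 87 other genes of astrocytes were read in 9 lists by their roles, and all 87 were tested. By limma, none passed the adjusted threshold. Only 1, *Igfbp2*, passed the unadjusted one (1.15% of the lists, against the 2.01% of all tested genes), and the block gave 8 (9.20%, against 4.98%), 6 higher and 2 lower in TG. For these 8 the blocked limma model gave unadjusted p-values of 0.00216 for *Chrdl1*, 0.00246 for *Igfbp2*, 0.039 for *Slc7a11*, 0.0396 for *Thbs1*, 0.0479 for *Cd44* and 0.0492 for *Fabp7*, which were higher, and 0.00114 for *Thbs4* and 0.0172 for *C4b*, which were lower, with 0.436 the smallest adjusted one. The median log2 difference over the 87 genes was 0.01, with 49 positive and 38 negative values. The groups did not overlap for 1 of them (1.15%, against 6.02% of all tested genes), *Thbs1*, which encodes a secreted thrombospondin. It had 133, 139 and 144 normalized counts in TG and 96.0, 113 and 124 in WT, with a log2 difference of 0.33 (SE 0.14). *C4b*, a complement gene, had 315, 386 and 446 normalized counts in TG and 451, 386 and 649 in WT. WT-3 was its highest library, and its log2 difference at number 2 was 0.0024. *Thbs1* and *C4b* were named after their values had been seen.

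Genes of transmitter uptake and amino acid handling had a median log2 difference of 0.03 over 9 genes. *Glul*, which encodes glutamine synthetase, had 44981 ± 6432 normalized counts in TG and 45550 ± 6674 in WT (SD over 3 libraries), a log2 difference of -0.02 (SE 0.14). *Slc6a11*, a GABA transporter of astrocytes, had 4205 ± 550 and 3838 ± 483, a log2 difference of 0.13 (SE 0.12). *Slc7a11*, the cystine and glutamate exchanger, had the smallest unadjusted p-value of the list, 0.228 in limma's test, and a log2 difference of 0.16 (SE 0.12). Genes of ion balance and the end foot had a median of -0.0038 over 12 genes, with estimates between -0.12 and 0.05. *Atp1b2*, which encodes a beta subunit of the sodium pump, had a log2 difference of -0.01 (SE 0.08). *Kcnj16*, an inwardly rectifying potassium channel, had -0.10 (SE 0.10).

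Genes of glycogen, lipid and metal handling had a median of -0.01 over 12 genes. *Apoe*, the main apolipoprotein of astrocytes, had 26051 ± 4966 normalized counts in TG and 26057 ± 5488 in WT (SD over 3 libraries), and *Clu*, or clusterin, had 15480 ± 448 and 16371 ± 1453. *Apoe* followed the libraries numbered 3, with 20404 in TG-3 and 20093 in WT-3 against 27184 to 30893 in the other 4. *Fabp7*, a fatty acid binding protein of radial glia and astrocytes, had 432, 792 and 257 normalized counts in TG and 408, 355 and 240 in WT. TG-2 was the highest library, as for *Gfap*, and the log2 difference of *Fabp7* was 0.44 with an SE of 0.38.

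The 8 transcription factors had a median log2 difference of -0.02 between the genotypes but ran against the 7 astrocyte genes across replicate numbers, with 6 of 8 higher in both libraries numbered 3. *Nfib*, the most abundant, had 2195, 2841 and 3235 normalized counts in TG and 2022, 2064 and 5030 in WT, with WT-3 far above the others. *Lhx2*, also used by cortical neurons, had 1872 ± 268 in TG and 1901 ± 109 in WT, and *Rfx4* had 401 ± 84.5 and 362 ± 54.1 (SD over 3 libraries). The fibroblast growth factor genes around *Fgfr3* had a median of 0.01 over 6 genes. *Etv5*, a transcription factor induced by this pathway, had a log2 difference of -0.02 (SE 0.09), the receptor *Fgfr1* 0.08 (SE 0.15) and the ligand *Fgf1* -0.09 (SE 0.09).

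Secreted and synapse-shaping genes had a median of 0.05 over 11 genes. *Sparcl1*, which encodes hevin, a synapse-promoting protein, had 51185 ± 2318 normalized counts in TG and 54300 ± 1776 in WT, and *Sparc* had 3808 ± 174 and 3879 ± 590 (SD over 3 libraries). *Chrdl1*, which astrocytes of the upper cortical layers secrete and which promotes the maturation of synapses, had 919, 847 and 692 normalized counts in TG and 711, 693 and 579 in WT. TG-3 was below WT-1 and WT-2, while each TG library was above the WT library of the same number. The log2 difference of *Chrdl1* was 0.31 (SE 0.13), with an unadjusted p-value of 0.0513 and an adjusted one of 0.9999 in limma's test, and the block gave 0.00216 and 0.491. Receptors had a median of 0.01 over 6 genes. *Grm3* and *Ntsr2*, receptors for glutamate and neurotensin, had log2 differences of 0.01 and 0.01 (SEs 0.09 and 0.10), and *Adra1a* had 0.10 (SE 0.13).

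Genes that accompany *Gfap* in reactive astrocytes had estimates of both signs. Of 17 such genes, 10 had positive and 7 negative estimates, with a median of 0.06. *Vim*, the intermediate filament vimentin, had 932 ± 97.3 normalized counts in TG and 890 ± 73.7 in WT, and *Fkbp5*, a glucocorticoid-induced gene, had 659 ± 122 and 640 ± 179 (SD over 3 libraries). *Cd44*, a receptor for hyaluronan, had the smallest unadjusted p-value of the list, 0.0765 by limma with genotype alone, with 85.7, 87.6 and 60.1 normalized counts in TG and 47.1, 67.8 and 54.0 in WT. *Lcn2* and *Cxcl10*, named after their values had been seen, were high in WT-3 alone. *Lcn2* had 111 normalized counts there against 3.61 to 13.3 in the other 5 libraries, and *Cxcl10* had 45.8 against 0 to 7.08. *Gfap* in WT-3, at 2324 normalized counts, was within the range of WT-1 and WT-2.

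For white matter and pial astrocytes, 5 of 6 genes had positive estimates, with a median of 0.11. *Igfbp2*, a binding protein for insulin-like growth factors that leptomeningeal cells also make, had 933, 978 and 784 normalized counts in TG and 833, 710 and 594 in WT, a log2 difference of 0.34 (SE 0.14). By limma its unadjusted p-value was 0.0446, and 0.00246 with the block, and the adjusted ones were 0.9999 and 0.491. *Myoc*, a gene of astrocytes at the pial surface, had 544 ± 69.1 and 501 ± 48.8 (SD over 3 libraries). *Thbs4*, named after its values had been seen, had 29.2, 74.6 and 76.0 normalized counts in TG and 75.5, 104 and 168 in WT. Each TG library was below the WT library of the same number, and the log2 difference was -0.98 (SE 0.42). By limma the unadjusted p-value of *Thbs4* was 0.0501, and 0.00114 with the block, and the adjusted ones were 0.9999 and 0.436.

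Lists for white matter and meninges, where *Gfap*-rich astrocytes lie, had larger estimates than the 10 astrocyte genes. All 10 genes of a mature oligodendrocyte list were lower in TG in their estimates, with a median log2 difference of -0.44, and 9 passed an unadjusted p-value of 0.05 by limma (2.01% of all tested genes did), with none past the adjusted one. The block gave 10 past the unadjusted threshold (4.98% of all tested genes), and the empirical null gave 3 past the adjusted one (0.156%). Their summed normalized counts lay between 76088 and 98684 in TG and between 113307 and 115340 in WT. All 10 genes of a leptomeningeal list had positive estimates, with a median of 0.25, and 4 passed the unadjusted threshold, or 6 with the block, with none past the adjusted one. Their sums lay between 5389 and 6328 in TG and between 4632 and 5239 in WT. No gene of either list was at 0 in any library. The sums of the 10 astrocyte genes, between 131047 and 147582 in TG and between 134368 and 154825 in WT, overlapped. The part of white matter and meninges in the *Gfap* and *S100b* values was not tested. The other 9 lists of cell types had median log2 differences of -0.07 for oligodendrocyte precursors, -0.57 for ependymal, 0.52 for choroid plexus, 0.39 for olfactory bulb and neuroblast and -0.19 for striatal genes. Single libraries stood apart in 3 of these lists, the olfactory bulb and neuroblast one in TG-2 as given above, the ependymal one with a summed 395 normalized counts in WT-3 against 162 to 203 elsewhere, and the choroid plexus one with 544 in TG-3 against 83.9 to 223. The medians were -0.0027 for microglia, 0.02 for endothelial cells, 0.04 for excitatory and -0.02 for inhibitory neurons, and no gene of these 9 lists passed the adjusted threshold.

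**Figure D5:**
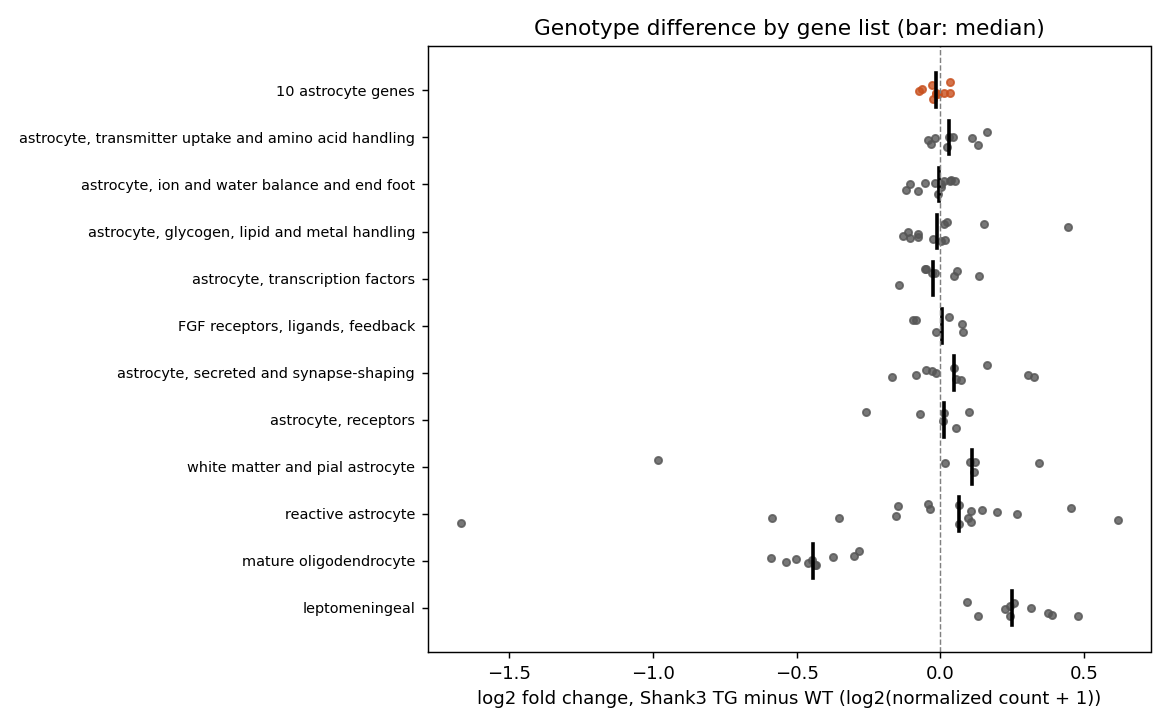
Log2 fold change of each gene, *Shank3* TG minus WT on the scale log2(normalized count + 1), for the 10 astrocyte genes (orange), the 9 other astrocyte lists and the oligodendrocyte and leptomeningeal lists, with the median of each list as a black bar. The astrocyte genes lie within 0.08 of 0, with a median of -0.02, and the oligodendrocyte and leptomeningeal medians lie at -0.44 and 0.25.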

How the data were processed

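RNA from the mPFC of 6 pools of 2 mice was extracted, made into stranded mRNA libraries and sequenced by a company, Macrogen. The authors estimated transcripts with Salmon 0.9.1 on GRCm38 correcting for GC bias, summed them to genes through tximport (R 3.6.0) and divided them by size factors in DESeq2 1.19.11. The deposited signal values are these normalized counts. They are not whole reads (of values from 0 to 20, no step brought more than 40.9% within 0.05 of a whole multiple), so no counting interval or count model was used, and precision comes from the spread of the libraries. Of 18254 genes, 18231 were found in GENCODE M21.

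Genes whose mean reached 5 normalized counts, 16714 in all, were fitted as log2(value + 1), which understates the change of low genes, with genotype alone in limma 3.58.1 (R 4.3.3, eBayes with trend), two-sided, with Benjamini-Hochberg adjustment over all of them. Alternatives are given in the closing section. Same-numbered TG and WT libraries deviated together from their genotype means (correlation across genes 0.30, 0.33 and 0.62), against 0.27 for TG-1 with WT-2, 0.23 for TG-2 with WT-1 and -0.44 to -0.39 for the pairs of a library numbered 3 with another number, so that numbers 1 and 2 were little set apart from each other. All same-numbered correlations were over 0.1, and the replicate number was also used as a block. The crossed pairs of numbers 1 and 2 were over 0.1 too, so this threshold does not single out same-numbered pairs. Deviations from a genotype mean sum to 0 over its 3 libraries, so the correlations are not independent of each other. The genes and lists were chosen with earlier results of these data known. Named are all 10 genes, the 2 most abundant genes and the one with the smallest unadjusted p-value of each astrocyte list, *Cdhr1* and *Shank3*, and the 5 genes nearest to *Gfap*. *Thbs1*, *Thbs4*, *C4b*, *Lcn2* and *Cxcl10* were added after their values had been seen. One gene that the rule names is not reported here. Lists of 11 other cell types were used as checks. Nothing says that the pools came from separate litters or days.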

Additional observations from a re-analysis of the deposited data

How the results depend on the processing

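Over 17 alternatives, 0 of the 10 astrocyte genes and 0 of the 87 other astrocyte genes passed the adjusted threshold of 0.05 by limma, and the smallest adjusted p-value of the 10 genes was 0.968. The number of genes called among all those tested was 0, and it was 1 with the robust option, 1 with the replicate number as a block, 26 with an empirical null (z-scores divided by their width), 1 without both libraries numbered 3, and between 0 and 1 with single libraries left out (1 without WT-3). The median log2 fold change of the 10 genes ran from -0.07 without WT-3 to 0.08 without TG-3.

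The signs of 8 of the 10 estimates changed under at least 1 alternative. With quantile normalization *Slc1a2* had 0.10 and *Gjb6* 0.0013. Without both libraries numbered 3, *Gfap* had 0.093, *Gja1* 0.014 and *Gjb6* 0.041. Leaving out single libraries, the log2 fold change ran from -0.20 to 0.079 for *Gfap*, from -0.063 to 0.13 for *Aqp4*, from -0.055 to 0.041 for *Slc1a2*, from -0.14 to 0.16 for *Aldh1l1*, from -0.080 to 0.079 for *Gja1*, from -0.18 to 0.21 for *Gjb6*, from -0.13 to 0.077 for *Aldoc* and from -0.20 to 0.095 for *Fgfr3*. *Slc1a3* and *S100b* kept their signs but not their sizes, from 0.00047 without WT-2 to 0.057 without WT-1 for *Slc1a3* and from -0.15 without WT-2 to -0.0036 without WT-3 for *S100b*. The remaining settings, pseudocounts of 0.1 and 5, the fit without a filter, a minimum mean of 50, upper quartile scaling and the fit without a mean-variance trend, changed no sign of the 10. The cause of the changes was not tested. The width of the intervals depends on the model: for *Gjb6* the log2 interval was -0.49 to 0.48 with genotype alone and -0.16 to 0.14 with the replicate block, both from 3 pools of 2 mice for each genotype.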
